A study of Mus musculus with 4 samples.

Results

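Membrane carriers that move sugars, monocarboxylates, organic ions, vitamins, nucleosides and lipids were compared between endothelial cells (ECs) of the mouse brain and of the dura mater, the outer meningeal membrane under the skull. The carriers were all entries of the count tables whose symbol began with Slc2a, Slc5a, Slc16a, Slc19a, Slc22a, Slc28a, Slc29a, Slco or Mfsd followed by a digit. This rule, which used names and no measured value, took 107 of 23282 entries in 9 families. It also caught the pseudogenes Slc2a4rg-ps, Slc22a13b-ps and Slco6b1.

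ECs came from C57BL/6J mice aged 8 weeks, and no injury, transgene or treatment is named for these samples. Cells of both tissues were digested with enzymes and sorted by flow cytometry as CD31+ CD45- TER-119- cells, and only the brain cells were first enriched on CD31 beads, so this step cannot be told apart from tissue. There were 2 brain EC libraries and 2 dura mater EC libraries, and the sources do not state whether they came from separate mice, so p-values measure only the spread between these libraries, which may be technical. The comparison addressed which genes set dura mater ECs apart from brain ECs, in a study of how vessels of both tissues regrow.

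Brain capillary ECs are joined by tight junctions and form the blood-brain barrier, so polar nutrients reach the brain mainly through carriers in the EC membrane. Slc2a1 encodes the glucose carrier GLUT1, Slc16a1 the lactate and ketone body carrier MCT1, Slco1a4 an organic anion carrier, Slco1c1 a thyroxine carrier, and Mfsd2a a carrier of lysophosphatidylcholine that bears docosahexaenoic acid. Mfsd2a is also known for keeping vesicle transport across brain ECs low. Vessels of the dura mater lie outside the blood-brain barrier, and their ECs are in part fenestrated.

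The promoters of 4 of the 5 marker carriers are shown because these genes held most carrier counts in brain ECs and stood lower in both dura mater libraries. The sequences are from RefSeq on GRCm38.p6, run 5′ to 3′ along the gene's strand and end at the base before the RefSeq start. For Slc2a1 the last 34 bases were left out, since another annotation, GENCODE M21, counts them as the gene. Capitals mark CTTTG, the core that TCF and LEF factors of Wnt signalling bind, and ACGTG, the hypoxia response core, searched on both strands. The windows were Mfsd2a at chr4:122961189-122961438 (minus strand), Slc2a1 at chr4:119108495-119108710 (plus strand), Slco1a4 at chr6:141856221-141856470 (minus strand) and Slco1c1 at chr6:141524104-141524353 (plus strand).
Mfsd2a: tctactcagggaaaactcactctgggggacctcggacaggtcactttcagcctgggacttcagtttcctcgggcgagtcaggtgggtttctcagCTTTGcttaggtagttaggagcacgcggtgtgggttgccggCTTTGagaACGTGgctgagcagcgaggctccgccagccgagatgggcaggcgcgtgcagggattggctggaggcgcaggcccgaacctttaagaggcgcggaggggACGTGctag
Slc2a1: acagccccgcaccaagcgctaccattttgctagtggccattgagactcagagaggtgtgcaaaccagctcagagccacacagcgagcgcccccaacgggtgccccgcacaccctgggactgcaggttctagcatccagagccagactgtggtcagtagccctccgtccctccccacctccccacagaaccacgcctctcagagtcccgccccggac
Slco1a4: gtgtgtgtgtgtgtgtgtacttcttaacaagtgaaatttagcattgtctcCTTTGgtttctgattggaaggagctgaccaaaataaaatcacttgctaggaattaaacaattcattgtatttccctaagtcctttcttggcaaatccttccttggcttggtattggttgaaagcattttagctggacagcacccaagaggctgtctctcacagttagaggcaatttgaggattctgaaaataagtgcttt
Slco1c1: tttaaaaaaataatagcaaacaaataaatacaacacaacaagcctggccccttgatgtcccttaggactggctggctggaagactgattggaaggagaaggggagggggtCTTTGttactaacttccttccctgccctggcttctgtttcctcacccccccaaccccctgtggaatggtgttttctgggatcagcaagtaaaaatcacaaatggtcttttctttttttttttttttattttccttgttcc
CTTTG stood 2 times in the Mfsd2a window and 1 time each in those of Slco1a4 and Slco1c1. Over the full 250 bases before the start it was in 53.8% of 106 carrier promoters and in 48.6% of all 32851 promoters. ACGTG stood 2 times in the Mfsd2a window, 1 time at the edge of the bases left out for Slc2a1, and was in 17% of carrier promoters against 16.6% of all. TATAAA, the TATA box, was in none of the stretches shown, in 9.43% of carrier promoters and in 12.4% of all. These shares describe letters in the windows and not binding of a factor.

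Each library held 13518973 to 16096203 counts, and 9350 to 11803 of the entries had at least 1 count. Replicates differed far more than counting error allows, with a chi-square of 363 for each degree of freedom in brain and 230 in dura mater. Across entries, Pearson's r of log2 CPM, the counts per 1000000 counts of a library, was 0.473 between the brain libraries and 0.594 between the dura mater libraries, against 0.324 to 0.510 between tissues, as a description in which the entries of a library share its depth. Of entries with 64 or more counts in 1 brain library, 31.3% had 7 or fewer in the other, and in dura mater the share was 30.7%. edgeR's quasi-likelihood test with Benjamini-Hochberg adjustment called 57 of 9347 tested entries at an adjusted p under 0.05. General EC markers were present in both tissues (10 of 10 counted in each, summed CPM 8577 to 12451). Markers of the brain EC barrier summed to 10069 and 10329 CPM in brain against 1934 and 2178 in dura mater, and 4 of 10 fell (Cldn5, Tfrc, Lsr and Itm2a). Markers of other cells were checked too. The summed CPM of erythroid markers was 18013 and 25692 in brain against 1496 and 762 in dura mater, 3 of 5 tested fell, and Slc4a1 was at 0 throughout. Choroid plexus epithelium markers summed to 146 and 21.8 CPM in brain against 2860 and 2147 in dura mater. Otx2 was at 0 in each library, Kcnj13 and Sostdc1 were at 0 in dura mater, and 1 of 3 tested, Aqp1, was called higher. The study lists Aqp1 among its candidate genes enriched in dura mater ECs. That list rests on the study's own sequencing of dura mater and brain ECs, so it is not separate evidence. Whether the Aqp1 counts came from ECs or from choroid plexus cells was not tested. Meningeal fibroblast markers summed to 7.38 and 50.7 in brain against 366 and 363 in dura mater. Mural cell (621 and 1076 against 1186 and 779), neuron (142 and 187 against 218 and 163), astrocyte (52.4 and 80.1 against 437 and 179, Aqp4 at 0), oligodendrocyte (102 and 5.22 against 163 and 58.4) and leukocyte markers (1.31 and 50.2 against 149 and 96.2, Cd3e at 0) completed the check. The part of these cells in the carrier results was not tested. In bulk samples, fewer cells of a type and less RNA per cell cannot be told apart.

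Of the 107 carriers, 60 had at least 1 count in a library and 47 were at 0 in all 4. A filter on low counts let 32 carriers (29.9%) into the test, against 40.1% of all entries, and 28 counted carriers were left untested. Counts are not scaled to transcript length, so levels are compared between libraries and not between genes. Fold changes are log2 ratios of dura mater to brain, fitted after a prior count of 2 was added. Each was refitted under 13 alternatives, or 12 for carriers that a stricter filter removed.

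Carriers took a larger part of the brain EC libraries than of the dura mater EC libraries. Their share of all counts was 2.29% and 2.11% in brain and 0.360% and 0.388% in dura mater. The 95% Wilson intervals, which cover counting error only, ran from 2.1% to 2.29% over both brain libraries and from 0.357% to 0.391% over both dura mater libraries. Without Slc2a1 the shares were 1.09% and 1.12% against 0.212% and 0.222%, so the gap did not rest on that gene alone. The 5 marker carriers together held 1.99% and 1.79% in brain against 0.208% and 0.201% in dura mater, so most of the gap lay in them. In both brain libraries Slc2a1, Slco1a4 and Slco1c1 had the most carrier counts, together 80.2% and 78.6% of them. In dura mater the first 3 were Slc2a1, Slco1a4 and Slco2b1 in replicate 1 (66.1%) and Slc2a1, Slco2b1 and Slco2a1 in replicate 2 (61.1%).

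Among the 32 tested carriers, 3 fell in dura mater ECs at an adjusted p under 0.05 in edgeR's quasi-likelihood test, Slc2a1, Slco1a4 and Mfsd2a, a share of 9.38% beside 0.182% of all tested entries that fell. None rose, beside 0.428% of all entries. At an unadjusted p under 0.05, 7 carriers were lower (2.97% of all entries) and 2 were higher (7.04% of all entries). DESeq2, run as an alternative, called 9 of 40 carriers lower, beside 3.65% of all entries, and 1 carrier, Slco2a1, higher, beside 8.67% of all entries. Both dura mater libraries lay below both brain libraries for 12 of 32 carriers, beside 16.9% of entries, and above them for 6, beside 26.2% of entries. The fitted fold change was under 0 for 24 carriers and over 0 for 8, with a median of -1.26 on the log2 scale, while 50.2% of all tested entries were under 0 with a median of -0.01. The carrier median was 0.39 without brain replicate 1 (45 carriers tested) and -0.0019 without brain replicate 2 (47). It was -0.94 without dura mater replicate 1 (47) and -2.96 without dura mater replicate 2 (39). The filter on low counts was rerun on the libraries left, so these medians cover other sets of carriers than the 32. How far the change of set moved the median was not tested.

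**Figure D1:**
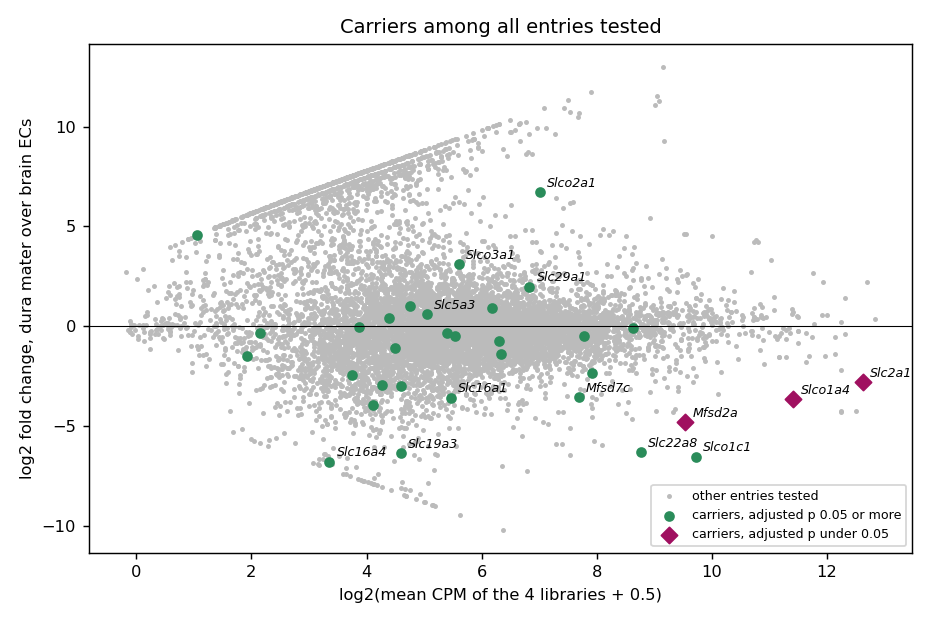
Each point is a tested entry, by its mean level over the 4 libraries (x axis, log2 of mean CPM plus 0.5) and its log2 fold change of dura mater over brain ECs (y axis). Diamonds mark the 3 carriers with an adjusted p under 0.05, Slc2a1, Slco1a4 and Mfsd2a, which lie below 0 toward the right end of the x axis, and green circles mark the other 29 tested carriers.

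Glucose carriers were led by Slc2a1 (chr4:119108711-119137983, plus strand, GRCm38), which fell in dura mater ECs. It had 172343 and 135461 counts in brain and 20064 and 26807 in dura mater. Its level was 11065 ± 1167 CPM (SD, n = 2) in brain and 1569 ± 103 CPM in dura mater. Both dura mater libraries were low and close to each other, with a mean at 14.2% of the brain mean, and the groups did not overlap, the nearest pair being 6.24-fold apart. This was a log2 fold change of -2.82 (SE 0.25, adjusted p = 0.0232, edgeR) that all 13 alternatives called. By count, Slc2a1 ranked 1st and 4th of all entries in the brain libraries and 79th and 67th in the dura mater libraries. An antisense gene, Gm12868, covers 3% of its exon bases, and use of strand in counting is not given in the sources used here. Antisense genes also cover 6.86% of the exon bases of Slc29a1, 9.22% of Slco2b1, 9.61% of Slc2a12, 9.92% of Slc5a6, 15.6% of Mfsd7b, 16.8% of Slc5a10, 22.5% of Slc16a6, 23.5% of Slc16a9, and at most 4.07% of Mfsd11, Mfsd8, Slc28a3 and Slco2a1. Counts of these genes are uncertain for that reason.

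The other glucose carriers were sparse. Slc2a3, which encodes the neuronal glucose carrier GLUT3, and the hepatic and intestinal sugar carriers Slc2a2 and Slc2a5 were at 0 in all libraries. Slc2a8, an intracellular sugar carrier, had 876 and 0 counts in brain and 222 and 183 in dura mater. Its brain replicates lay on both sides of the dura mater values (adjusted p = 1.00, edgeR). Slc2a9, known as a urate carrier, had no counts in brain and 10 and 91 in dura mater (adjusted p = 0.468, edgeR). Its dura mater mean was 14.6-fold above a floor of 3 counts per brain library, which by counting error alone is the most that a 0 allows. Slc2a10 (295 counts), Slc2a12 (184) and the inositol carrier Slc2a13 (143) were counted in dura mater replicate 2 and in no other library.

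Among sodium-coupled carriers of the Slc5a family, Slc5a3, the myo-inositol carrier (chr16:92058322-92087473, plus strand), was counted in all libraries, with 333 and 382 counts in brain and 523 and 638 in dura mater. The level was 25.9 ± 4.17 CPM in brain and 39.0 ± 0.057 CPM in dura mater (n = 2 each), and both dura mater libraries were higher. Its log2 fold change of 0.59 did not pass the test (SE 1.72, adjusted p = 1.00, edgeR). Slc5a6, which carries biotin and pantothenate, had 498 and 2 counts in brain and 669 and 343 in dura mater, and Slc5a10, known as a sugar carrier, 912 and 5 against 0 and 63. Slc5a1, the intestinal sodium-glucose carrier, had 159 counts in dura mater replicate 2 and 0 elsewhere. In each of these 3 genes 1 library of a tissue stood far from its replicate.

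Lactate and other monocarboxylates cross membranes through the Slc16a family, of which 5 of 14 members were tested and none passed. Slc16a1 (chr3:104638668-104658462, plus strand) had 1163 and 1067 counts in brain and 2 and 213 in dura mater. The brain libraries agreed closely at 80.4 ± 0.298 CPM, while the dura mater libraries, at 0.149 and 13.0 CPM, were low but far apart. No call was made of the log2 fold change of -3.58 (SE 2.19, adjusted p = 0.693, edgeR) in this fit or in 12 alternatives, and it was -2.75 without dura mater replicate 1 and -8.11 without dura mater replicate 2. Slc16a4 (chr3:107291230-107312115, plus strand), a related carrier with little known of its cargo, had 178 and 351 counts in brain and 1 and 0 in dura mater, the latter under the floor of 3 counts. Its summed counts, scaled by the summed library sizes, were 567-fold higher in brain, with an exact 95% counting interval of 101 to 22453. The log2 fold change of Slc16a4 was -6.79 (SE 3.04, adjusted p = 0.476, edgeR). It was called in 1 of 12 alternatives, DESeq2 (adjusted p = 0.0157), with 0.181 to 1 in the others.

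Further Slc16a members varied mainly between replicates. Slc16a9, known as a carnitine and creatine carrier, had 491 and 2637 counts in brain and 644 and 655 in dura mater, so the groups overlapped. Slc16a6 had 0 and 885 in brain and 3 and 132 in dura mater. Slc16a11 had 513 counts in brain replicate 1 and Slc16a13 had 538 in brain replicate 2, each with at most 1 count in any other library, and both genes lie in the same stretch of chromosome 11. Slc16a3, the lactate exporter MCT4 of glycolytic cells, had 1 and 8 counts in brain and 209 and 3 in dura mater. Slc16a7, which encodes MCT2, was at 0 in all libraries.

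Vitamin carriers of the Slc19a family had most of their counts in brain. Slc19a3, a thiamine carrier (chr1:83012523-83038448, minus strand), had 584 and 706 counts in brain and 0 and 14 in dura mater. Its level was 46.8 ± 9.25 CPM in brain and 0.429 ± 0.606 CPM in dura mater, with no overlap. Fitted as a log2 fold change this was -6.37 (SE 3.04), with an adjusted p of 0.510 by edgeR. DESeq2 called it (adjusted p = 0.00933), as 1 of 12 alternatives, and the others gave 0.154 to 0.967. The value was -5.69 without dura mater replicate 1 and -8.34 without dura mater replicate 2. The folate carrier Slc19a1 had 240 counts in brain replicate 1 and 0 in the other 3 libraries, and the thiamine carrier Slc19a2 had 3 counts, in dura mater replicate 2.

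Organic cation, anion and carnitine carriers of the Slc22a family were led by Slc22a8 (chr19:8591254-8611835, plus strand), the organic anion carrier OAT3. It had 11119 and 12633 counts in brain and 0 and 344 in dura mater. The level was 861 ± 133 CPM in brain and 10.5 ± 14.9 CPM in dura mater, with both dura mater libraries far below both brain libraries. The 0 in dura mater replicate 1 allows up to 0.224 CPM by counting error alone, while replicate 2 was at 21.1 CPM. Slc22a8 had a log2 fold change of -6.33 (SE 2.08, adjusted p = 0.428, edgeR) and was called in 7 of 12 alternatives. The calls included the fits with 1 library left out, in which the lone library is assumed to vary like the other tissue. The log2 fold change was -6.57 without brain replicate 1, -6.26 without brain replicate 2, -5.49 without dura mater replicate 1 and -12.53 without dura mater replicate 2.

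Slc22a8 lies in a stretch of chromosome 19 (chr19:7673061-8628299) with 8 Slc22a carriers, and the other 7, among them the renal organic anion carrier Slc22a6, were at 0 in all libraries. The organic cation carriers Slc22a2 and Slc22a3 were at 0 as well. Slc22a15 (1 and 1113 counts in brain, 0 and 170 in dura mater), Slc22a17 (1 and 1223, 633 and 433) and the carnitine carrier Slc22a5 (0 and 379, 113 and 311) had at most 1 count in brain replicate 1. Of 50-base stretches of Slc22a5, 26.3% recur in other genes, mainly the related Slc22a21 and Slc22a4, so its reads may be shared. The same limit holds for Slc5a6 (13.6%), Mfsd8 (11.5%) and Mfsd11 (4.26%), whose stretches recur in other genes.

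**Figure D2:**
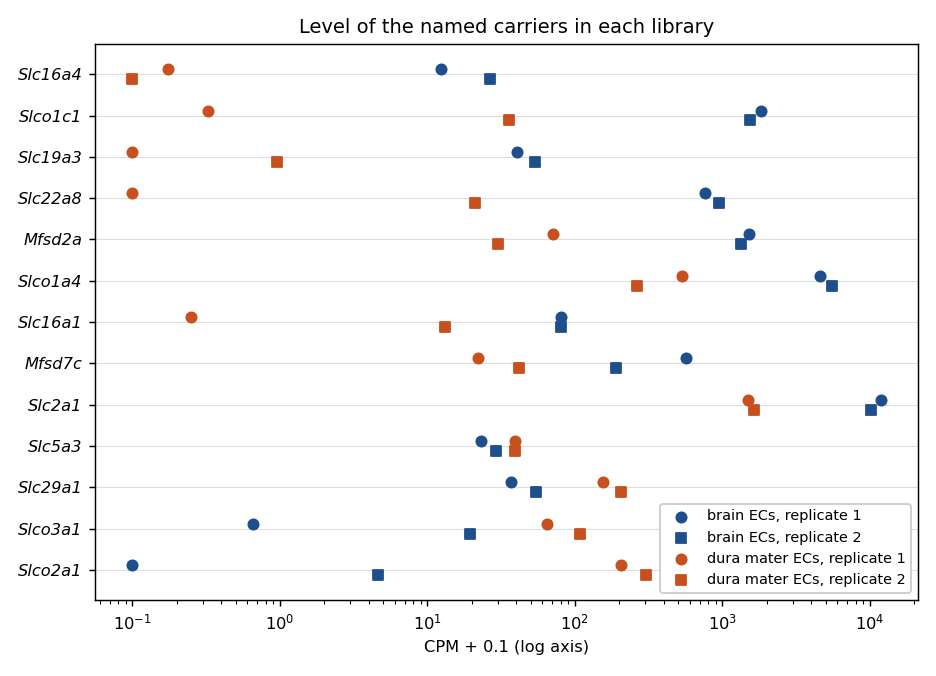
CPM plus 0.1 on a log axis for 13 named carriers, ordered by fold change, with 1 point for each library (blue, brain; orange, dura mater; circles, replicate 1; squares, replicate 2). Slc2a1, Slco1a4 and Mfsd2a are counted in every library and set apart by tissue. Others, such as Slco1c1, Slc22a8, Slc16a1, Slco2a1 and Slco3a1, each have 1 library far from its replicate.

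Organic anion carriers of the Slco family included the second carrier to fall, Slco1a4 (chr6:141805440-141856199, minus strand), which carries bile salts, steroid conjugates and drugs. It had 66518 and 72900 counts in brain and 7135 and 4270 in dura mater. The level was 5050 ± 652 CPM in brain and 397 ± 191 CPM in dura mater, and the dura mater libraries stood at 10.5% and 5.18% of the brain mean. The groups were set apart by 8.63-fold at the nearest pair. All 13 alternatives called its log2 fold change of -3.67 (SE 0.43, adjusted p = 0.0248, edgeR).

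Slco1c1 (chr6:141524368-141570177, plus strand), the thyroxine carrier, had 26304 and 20267 counts in brain and 3 and 579 in dura mater. Both brain libraries were high, at 1673 ± 200 CPM, and both dura mater libraries were low, at 0.224 and 35.5 CPM, yet the latter differed widely. Slco1c1 had a log2 fold change of -6.54 (SE 1.89, adjusted p = 0.339, edgeR) and was called in 8 of 12 alternatives. Among these calls were the fits with 1 library left out, where the lone library is assumed to vary like the other tissue. The values were -6.50 without brain replicate 1, -6.76 without brain replicate 2, -5.70 without dura mater replicate 1 and -12.16 without dura mater replicate 2.

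Slco1a4 and Slco1c1 lie in 1 stretch of chromosome 6 (chr6:141524368-142322981) with 4 further Slco1 carriers. Of these, Slco1a1 had 216 and 3 counts in brain and Slco1a5 203 and 0, both with no count in dura mater, Slco1a6 had 1 count in each brain library, and Slco1b2, a liver carrier, was at 0. No carrier of this stretch other than Slco1a4 and Slco1c1 was counted in dura mater. Slco1a1, Slco1a4 and Slco1a5 share 1.61% to 3.56% of their 50-base stretches, so a small part of their reads may be split between them.

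A pair of Slco members had higher values in dura mater. Slco2a1 (chr9:102988712-103096002, plus strand), the prostaglandin carrier, had 0 and 60 counts in brain and 2768 and 4958 in dura mater, or 2.27 ± 3.21 CPM against 255 ± 68.8 CPM. The groups were wide apart, and the brain replicates differed in whether the gene was counted at all. Its log2 fold change was 6.73 (SE 2.02, adjusted p = 0.363, edgeR). It was called in 6 of 12 alternatives. These included the fits without brain replicate 1 (5.72) and without brain replicate 2 (10.85), where the lone brain library is assumed to vary like dura mater. It was not called without dura mater replicate 1 (6.84) or dura mater replicate 2 (6.40). Slco3a1 (chr7:74275419-74554780, minus strand), which also carries prostaglandins and thyroxine, had 8 and 255 counts in brain and 871 and 1770 in dura mater. Slco3a1 had a log2 fold change of 3.11 (SE 1.93, adjusted p = 0.703, edgeR) and was called in 1 of 12 alternatives. That call was without brain replicate 2 (6.92), under the same assumption, while the value without brain replicate 1 was 2.1.

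Slco2b1 (chr7:99657804-99711340, minus strand), a carrier of steroid sulfates, had overlapping values in both tissues. It had 6908 and 4488 counts in brain and 4992 and 6429 in dura mater, or 408 ± 97.1 CPM against 383 ± 15.2 CPM, and both dura mater values lay between the brain values. Its log2 fold change was -0.09 (SE 0.39, adjusted p = 1.00, edgeR).

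Nucleoside carriers were led by Slc29a1, the equilibrative nucleoside carrier ENT1 that takes up adenosine (chr17:45585200-45599606, minus strand). It had 536 and 714 counts in brain and 2083 and 3359 in dura mater. The level was 45.5 ± 12 CPM in brain and 181 ± 35.7 CPM in dura mater, with both dura mater libraries above both brain libraries. ENT1's log2 fold change of 1.99 did not pass (SE 0.71, adjusted p = 0.466, edgeR) in this fit or in any of 13 alternatives. Slc29a3, a lysosomal nucleoside carrier, had 126 and 2 counts in brain and 6 and 105 in dura mater. The sodium-coupled Slc28a1 and Slc28a2 were at 0, and Slc28a3 had 2 counts in dura mater replicate 2, under the floor of 3 counts.

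Lipid and other carriers of the Mfsd family held the third called gene. Mfsd2a (chr4:122946850-122961188, minus strand) had 22073 and 17712 counts in brain and 955 and 490 in dura mater, and fell by the widest margin of the 3. The level was 1431 ± 130 CPM in brain and 50.6 ± 29.1 CPM in dura mater, where the libraries stood at 4.98% and 2.1% of the brain mean. The nearest pair of libraries across tissues was 18.8-fold apart, with no overlap. This gave a log2 fold change of -4.82 (SE 0.55, adjusted p = 0.0248, edgeR), called by all 13 alternatives.

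Mfsd7c (chr12:85746539-85813585, plus strand), now named Flvcr2 and known as a choline carrier of brain ECs, had 8214 and 2525 counts in brain and 295 and 684 in dura mater. The level was 379 ± 266 CPM in brain and 31.9 ± 14.1 CPM in dura mater, and the dura mater libraries were the lower ones although both pairs of replicates were spread. With a log2 fold change of -3.56 (SE 0.76, adjusted p = 0.168, edgeR), it was called in 6 of 13 alternatives. Without brain replicate 2 it was called (-4.22), where the lone brain library is assumed to vary like dura mater. It was not called without brain replicate 1 (-2.63), dura mater replicate 1 (-3.31) or dura mater replicate 2 (-4.11). Its relative Mfsd7b, now Flvcr1, had 581 and 50 counts in brain and 31 and 91 in dura mater.

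Other Mfsd members did not pass the test. Mfsd1, a lysosomal carrier of dipeptides, had 3966 and 3133 counts in brain and 2396 and 3013 in dura mater (log2 fold change -0.49). Mfsd5 had 1270 and 1431 against 528 and 1275 (-0.74), and Mfsd10 had 656 and 716 against 1524 and 1236 (0.93). Scaled to CPM, the groups did not overlap in these 3 genes (adjusted p = 0.952, 1.00 and 0.974, edgeR), although the counts of Mfsd5 did (87.6 and 108 CPM in brain, 39.4 and 78.1 CPM in dura mater). The groups overlapped for Mfsd6 (87 and 1341 counts in brain, 654 and 447 in dura mater), Mfsd11 (452 and 55, 204 and 515) and Mfsd8, a lysosomal protein (143 and 0, 0 and 54).

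**Figure D3:**
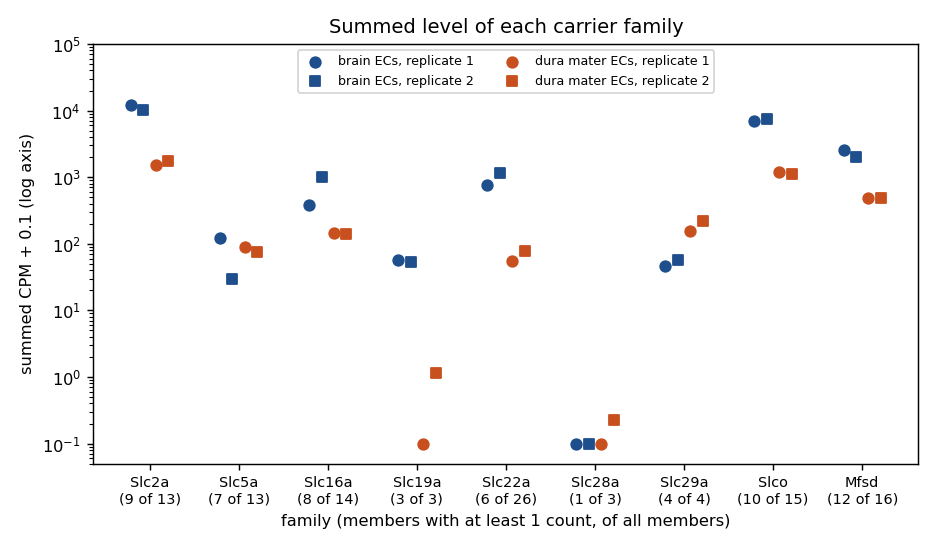
Summed CPM plus 0.1 on a log axis for each of the 9 families in the 4 libraries (blue, brain; orange, dura mater; circles, replicate 1; squares, replicate 2), with the number of members counted of all members under each name. Slc2a, Slc16a, Slc19a, Slc22a, Slco and Mfsd are higher in both brain libraries and Slc29a in both dura mater libraries, while Slc5a overlaps and Slc28a is at or near 0.

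Summed over families, the levels followed the leading genes. The Slc2a sum was 11095 ± 1210 CPM in brain and 1619 ± 149 CPM in dura mater, the Slco sum 7158 ± 351 and 1143 ± 46.7 CPM, and the Mfsd sum 2311 ± 385 and 486 ± 10.2 CPM. Slc22a (964 ± 278 and 66.4 ± 15.1 CPM), Slc16a (692 ± 438 and 142 ± 6.12 CPM) and Slc19a (55.1 ± 2.46 and 0.521 ± 0.736 CPM) were higher in brain in each library too. Slc29a sums were higher in both dura mater libraries, at 51.4 ± 8.06 CPM in brain and 189 ± 46.7 CPM in dura mater. Slc5a sums overlapped (74.9 ± 64.2 and 82.5 ± 9.20 CPM).

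Replicate agreement set how many carriers could be read. In brain 18 carriers had 64 or more counts in both libraries, while 14 of the 35 with 64 or more in either had 7 or fewer in the other (40%). In dura mater 20 had 64 or more in both, and 14 of 36 had this split (38.9%). Among carriers with 64 or more counts in 1 library and 7 or fewer in each of the other 3, 4 were in brain replicate 1 (Slc16a11, Slc19a1, Slco1a1 and Slco1a5), 1 in brain replicate 2 (Slc16a13) and 7 in dura mater replicate 2 (Slc2a10, Slc2a12, Slc2a13, Slc2a4rg-ps, Slc5a1, Slc29a2 and Slco5a1), and none was in dura mater replicate 1. A value from 1 such library describes that library and not its tissue. Slc29a2 had 155 counts in dura mater replicate 2, Slco5a1 101 and the pseudogene Slc2a4rg-ps 396. Slc16a3 was untested too, with 209 counts in dura mater replicate 1 and 8 or fewer elsewhere. The other untested carriers that were counted, such as the insulin-responsive glucose carrier Slc2a4, the iodide carrier Slc5a5 and Slc29a4, had at most 59 counts in any library.

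**Figure D4:**
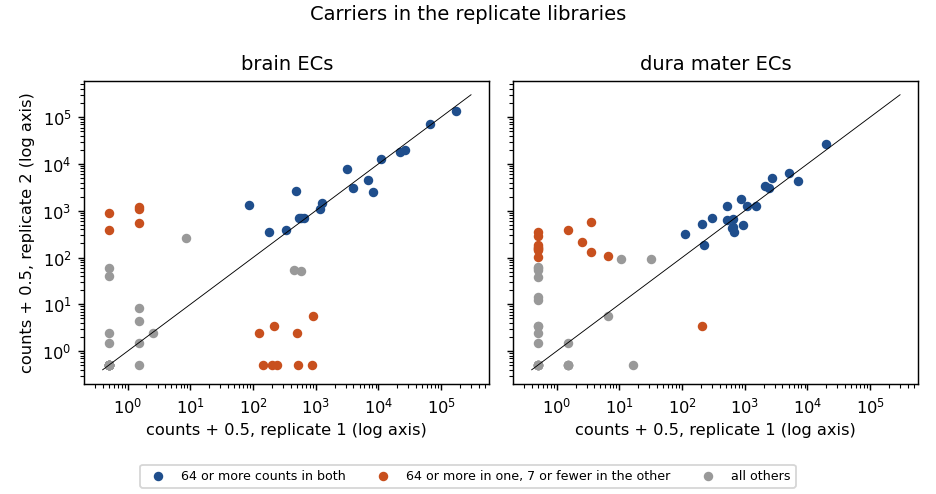
Counts plus 0.5 of each carrier in replicate 1 (x axis) and replicate 2 (y axis), on log axes, for brain ECs (left) and dura mater ECs (right), with the line of equal counts. Blue points have 64 or more counts in both libraries (18 in brain, 20 in dura mater), some of them well off the line, such as Mfsd6 in brain at 87 and 1341 counts, and orange points have 64 or more in one and 7 or fewer in the other (14 in each tissue).

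The 13 carriers with 64 or more counts in each of the 4 libraries were also compared by themselves. Both dura mater libraries were below both brain libraries for 7 of them, which included Slc2a1, Slco1a4, Mfsd2a, Mfsd7c, Mfsd1 and Mfsd5, beside 24.7% of 4266 entries counted as well. For 3 of them, Slc29a1, Mfsd10 and Slc5a3, dura mater was the higher tissue, beside 19.9% of entries. The groups overlapped for Mfsd6, Slc16a9 and Slco2b1.

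Proteins that place or remove these carriers formed a list of 10 genes, of which 7 were tested and none passed (median log2 fold change 0.82, against -0.01 for all tested entries). Bsg, which brings MCT1 to the membrane, had 4619 and 12257 counts in brain and 488 and 1645 in dura mater (log2 fold change -3.18, adjusted p = 0.238, edgeR). Txnip, which takes GLUT1 from the surface, had 10868 and 4987 in brain and 12053 and 17758 in dura mater (0.82, adjusted p = 0.567). Nptn, another chaperone of monocarboxylate carriers, was at 60.7 ± 53.3 CPM and 60.5 ± 7.30 CPM. Bsg was lower in both dura mater libraries, and Txnip higher in both, with neither past the test.

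Other routes for the same cargo were read from 19 genes, of which 11 were tested and 1 rose (median 1.65). Fabp4, a fatty acid binding protein of capillary ECs, had 2 and 7 counts in brain and 15241 and 15214 in dura mater, and its log2 fold change was 11.11 (adjusted p = 0.0232, edgeR). Slc3a2 and Slc7a5, the subunits of the amino acid and thyroid hormone carrier LAT1, had log2 fold changes of -0.50 and -3.05 (adjusted p for Slc7a5 = 0.329).

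Genes of thyroid hormone handling beyond the carriers included Ttr, a thyroxine binding protein made by choroid plexus, with 0 and 45 counts in brain and 19738 and 13352 in dura mater. Its log2 fold change was 9.29 (adjusted p = 0.132, edgeR), and its part in the thyroid hormone carrier values was not tested. Dio2, the thyroxine deiodinase, had 0 and 2 counts in brain and 632 and 654 in dura mater (7.67, adjusted p = 0.466), and the receptor Thra had a log2 fold change of 0.09. Of 7 genes 3 were tested and none passed (median 7.67).

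Enzymes that use the carried glucose and lactate had fold changes on both sides of 0. Of 16 genes 14 were tested and none passed, with a median log2 fold change of 0.53. The leading members by level, Ldha, Pkm and Aldoa, had values of -0.37, -0.78 and 0.51. Eno1, a glycolytic enzyme that all cells use, was at 0 in all libraries, while entries of its close copy Eno1b were counted in each. A 0 in these tables therefore does not by itself show that a gene is silent, Slc2a3 and the other carriers at 0 included. Of 7 nucleoside enzymes 3 were tested and none passed (median 1.05), and Pnp, Entpd1 and Adk had log2 fold changes of 1.05, 1.70 and -0.77. Adk had 212 and 633 counts in brain and 489 and 1 in dura mater, so its groups overlapped.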

How the data were processed

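Counts per gene were made by the authors from single libraries of sorted ECs and deposited as 1 table for each of the 4 libraries. Per the labels, RNA was extracted with Trizol and sequenced on an Illumina NextSeq, and the submitters' notes name Bowtie2, edgeR and mm10, which is GRCm38. TopHat and cufflinks are named by the study's methods. The counter, its annotation, its use of strand and any molecular identifiers are not given in the sources used here. No column of other samples or of the authors' comparisons was used.

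The 4 libraries were grouped by the labels and fitted together by tissue with edgeR 4.0.16 and limma 3.58.1 in R 4.3.3: TMM scaling, filterByExpr, quasi-likelihood test, Benjamini-Hochberg adjustment over all 9347 tested entries, threshold 0.05 and prior count 2. SE is the absolute log2 fold change over the square root of F. CPM are counts over TMM-scaled library sizes. The lowest count read as present was 3 per library (0.184 to 0.227 CPM). Intervals cover counting error only. The common biological coefficient of variation was 1.39. The fit was also run on simulated data, of which no result is used here.

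Carriers named were the 5 markers, those called, those with a log2 fold change of at least 1 in size, a mean of at least 10 CPM and groups that do not overlap (at most 14 in each direction), and the leading member of each family. From each list, genes past the threshold or else the 3 of highest mean CPM were named. Other carriers given with values were chosen after their values were seen. Results on some genes are not reported here. The carriers and lists were chosen with earlier results of these data known.

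Alternatives were DESeq2 1.42.0 on all counted entries, limma-voom, edgeR's newer dispersion, DESeq2's size factors, library size only, no filter, at least 10 counts in every library, a prior count of 0.5, the replicate block and each library left out. Positions are from GENCODE M21, which held all 107 carriers, 4 through a RefSeq synonym. RefSeq gave promoters for 89 carriers. Python 3.11.15, pandas 2.3.3 and matplotlib 3.10.9 drew figures.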

Additional observations from a re-analysis of the deposited data

How the results depend on the processing

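The calls of Slc2a1, Slco1a4 and Mfsd2a held in every alternative fit, and no named carrier changed direction. Of the values of named carriers under alternatives, 141 kept direction and side of the threshold and 34 passed it where the reported fit had not. The counts moved more. Against 57 entries called in all, DESeq2 called 1259, edgeR's newer dispersion 305, no filter 326, at least 10 counts in every library 141, and leaving out 1 library 80 to 740. Against 3 carriers called lower, the values were 9 with DESeq2, 7 with the newer dispersion, 7 with no filter and 5 to 6 with 1 library left out. Against 0 carriers called higher, DESeq2, the newer dispersion and no filter each called 1, Slco2a1, and leaving out 1 library gave 0 to 2. The median log2 fold change of tested carriers, -1.26, was -1.65 with DESeq2, -0.62 with limma-voom, -0.33 with no filter, -0.66 with at least 10 counts in every library and -2.96 to 0.39 with 1 library left out. The filter settings, DESeq2 (40 carriers) and leaving out 1 library (39 to 47) change which carriers are tested, against 32 in the reported fit. How far this moved the median was not tested, and for the other settings the cause was not tested.

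Libraries share a replicate number, but no source says that a number marks shared mice. Deviations of same-numbered libraries had r = -0.0208 across entries. Replicates differed so widely that this value cannot show whether mice were shared. The fit with the replicate block called 224 entries, 6 carriers lower and 1 higher, and its carrier median was -0.79. With 1 library left out, the lone library is assumed to vary like the other tissue. By counting error alone a 0 allows up to 0.184 to 0.227 CPM, but replicates that pair a 0 with many counts, such as Slc2a8 at 876 and 0 in brain, show that it does not bound the level of a carrier.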
